A study of Mus musculus with 21 samples.

Results

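The 39 genes described here encode the contractile and actin cytoskeleton machinery of smooth muscle and of other cells with stress fibres. They were chosen as a named list of smooth muscle, actin-binding, myosin, tropomyosin, focal adhesion and LIM-domain genes, with no cut on a measured value. Earlier results of these data were known when the list was made, so it is not independent of them. All 39 were found among the 18193 genes measured. The cells were nephron progenitors sorted from kidneys of Six2GFPcre BAC transgenic mouse embryos of mixed background at E16.5, with 40000 cells per sample. All cultures were in DMEM with 10% FBS, and BIO was given at 4 µM or replaced by an equal volume of DMSO. Expression was measured on 21 oligonucleotide arrays, 3 in each of 7 groups.

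The 7 groups were aggregates kept for 24 h with BIO or with DMSO, dispersed cells kept for 24 h with BIO or with DMSO, aggregates given BIO for 24 h and then DMSO for a further 24 h, aggregates kept with BIO for all 48 h, and freshly sorted cells with no culture. All carried the same transgene, so the driver and the reporter did not differ between groups. A group kept in DMSO alone for 48 h is not analysed here, so day 2 differs from day 1 in time as well as in treatment. Replicates are named as biological in the labels, with no word on separate litters, sorts or cultures. P-values therefore cover only the spread among the arrays at hand, part of which may be technical.

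Smooth muscle actin and myosin II slide along each other in bundles that tropomyosins, calponins, transgelin and caldesmon regulate, while filamins, alpha-actinins, vinculin, talin and zyxin tie those bundles to one another and to the cell's adhesions. Many of these genes are known targets of serum response factor (SRF), which binds CArG boxes with coactivators of the myocardin family that monomeric actin holds out of the nucleus. BIO inhibits the kinase GSK3, which keeps beta-catenin from being degraded and so turns on canonical Wnt target genes. In the developing kidney, smooth muscle, pericytes and mesangium are known to come from the stroma, and nephron progenitors are known to give rise to the epithelium of the nephron.

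Signals below are quantile-normalised intensities, each for 1 array, and differences are log2 differences of signal + 1 between group means, with the standard error of a limma model and n = 3 arrays per group. A gene is said to have changed where its p-value, adjusted by Benjamini-Hochberg over all 18193 genes, was under 0.05. Background was a signal of 41.8, set by bacterial control probe sets. Of the 39 genes, 33 lay above it on every array, and 0 lay below it on all of them. Signals of different genes rest on different probes, so levels were compared within a gene only.

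Median signals of the arrays were 87.2 to 106, and arrays of the same group correlated at 0.973 to 0.985. The progenitor gene Six2 had signals of 8565 to 9270 in fresh cells, and all 9 measured progenitor genes lay above background there on at least 1 array. All 9 listed genes of the interstitial stroma lay above background in fresh cells as well, with a summed signal of 14360 to 15500. The 6 Wnt response genes had summed signals of 14500 to 18150 in aggregates with BIO, against 1687 to 1900 in aggregates with DMSO, and all 6 were higher with BIO. On 4 arrays the 3' beta-actin control lay over 25% from its group's median, namely replicate 3 of aggregates with BIO, replicate 3 of aggregates with DMSO, replicate 1 of aggregates with BIO for 48 h and replicate 1 of fresh cells.

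Because the genes moved together, their proximal promoters were searched for the CArG box, the site bound by SRF, and those that held it are shown. Promoters of 33 of the 39 genes were matched by symbol in RefSeq sequence of build GRCm38.p6, each covering 250 bases before to 50 bases after a start site. The search used the CArG consensus with no mismatch and read the same on both strands. It found a box in 9 of the 33 genes and in 1.81% of the 27025 genes of the table, where 488 held one. Many of the 39 genes are known SRF targets, so that share is not independent of how the list was made. A match is a description of these letters, and a gene without one lacks them in this window only. The 250 bases before the start are printed for Srf, which holds 2 boxes, and for the actin, the myosin light chain and the calponin with some of the largest changes among the 9. Capitals mark the box.
Srf, chr17:46556163-46556412, minus strand: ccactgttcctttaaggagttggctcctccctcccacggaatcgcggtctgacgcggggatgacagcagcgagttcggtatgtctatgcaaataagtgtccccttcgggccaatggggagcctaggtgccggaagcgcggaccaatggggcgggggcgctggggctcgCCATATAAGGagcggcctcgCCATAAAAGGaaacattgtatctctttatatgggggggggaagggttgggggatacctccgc
Actc1, chr2:114052876-114053125, minus strand: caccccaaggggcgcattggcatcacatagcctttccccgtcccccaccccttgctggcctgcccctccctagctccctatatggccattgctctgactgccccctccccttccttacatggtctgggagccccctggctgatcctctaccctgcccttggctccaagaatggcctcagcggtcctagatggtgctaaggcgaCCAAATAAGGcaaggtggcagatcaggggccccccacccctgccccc
Myl9, chr2:156775214-156775463, plus strand: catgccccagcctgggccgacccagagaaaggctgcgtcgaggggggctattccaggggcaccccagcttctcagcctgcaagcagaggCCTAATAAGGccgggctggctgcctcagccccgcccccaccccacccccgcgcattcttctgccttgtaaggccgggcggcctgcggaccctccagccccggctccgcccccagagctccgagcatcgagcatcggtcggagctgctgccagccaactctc
Cnn2, chr10:79988350-79988599, plus strand: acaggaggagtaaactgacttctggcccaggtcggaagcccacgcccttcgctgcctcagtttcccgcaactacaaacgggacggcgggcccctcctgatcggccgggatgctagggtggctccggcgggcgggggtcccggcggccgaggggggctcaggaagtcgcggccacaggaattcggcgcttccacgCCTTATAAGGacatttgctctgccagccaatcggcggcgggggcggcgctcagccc

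The boxes of Srf began 82 and 62 bases before the start, that of Actc1 47, that of Cnn2 56 and that of Myl9 161. The other 5 genes with a box are shown by the 30 bases around it, since those letters are what the search matched. The box of Acta1 began 73 bases before its start, that of Myl6 50, that of Vcl 227 and that of Fhl1 102. Fhl2 held a box at 2 separate start sites, 96 and 31 bases before them.
Acta1, chr8:123894829-123894858, minus strand: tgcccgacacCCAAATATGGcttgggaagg
Myl6, chr10:128493040-128493069, minus strand: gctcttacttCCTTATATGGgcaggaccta
Vcl, chr14:20929161-20929190, plus strand: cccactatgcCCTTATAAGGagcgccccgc
Fhl1, chrX:56779571-56779600, plus strand: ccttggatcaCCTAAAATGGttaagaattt
Fhl2 (first start), chr1:43196838-43196867, minus strand: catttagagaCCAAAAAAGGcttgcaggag
Fhl2 (other start), chr1:43163973-43164002, minus strand: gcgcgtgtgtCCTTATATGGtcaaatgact

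The comparison of BIO with DMSO at 24 h asked how these genes respond to BIO in aggregated and in dispersed progenitors. In aggregates, 37 of the 39 genes fell with BIO and 0 rose, where 12.5% of all genes fell and 17.5% rose. Their median difference was -1.61, or -1.58 with genes below background in a whole group set at their bound, against 0.09 over all genes, and 29 of them fell by more than 2-fold. In dispersed cells 37 fell and 0 rose, where 13.4% of all genes fell and 15.3% rose, with a median of -1.41 for the 39 genes (-1.37 with bounds) against 0.02 over all genes. Altogether 36 genes fell in both formats. Neither falls in both formats nor falls past 2-fold were counted over all genes. Other probe sets of these genes, 53 in number and from 23 genes, were lower with BIO in 34 cases and higher in 0 cases in each format.

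**Figure D1:**
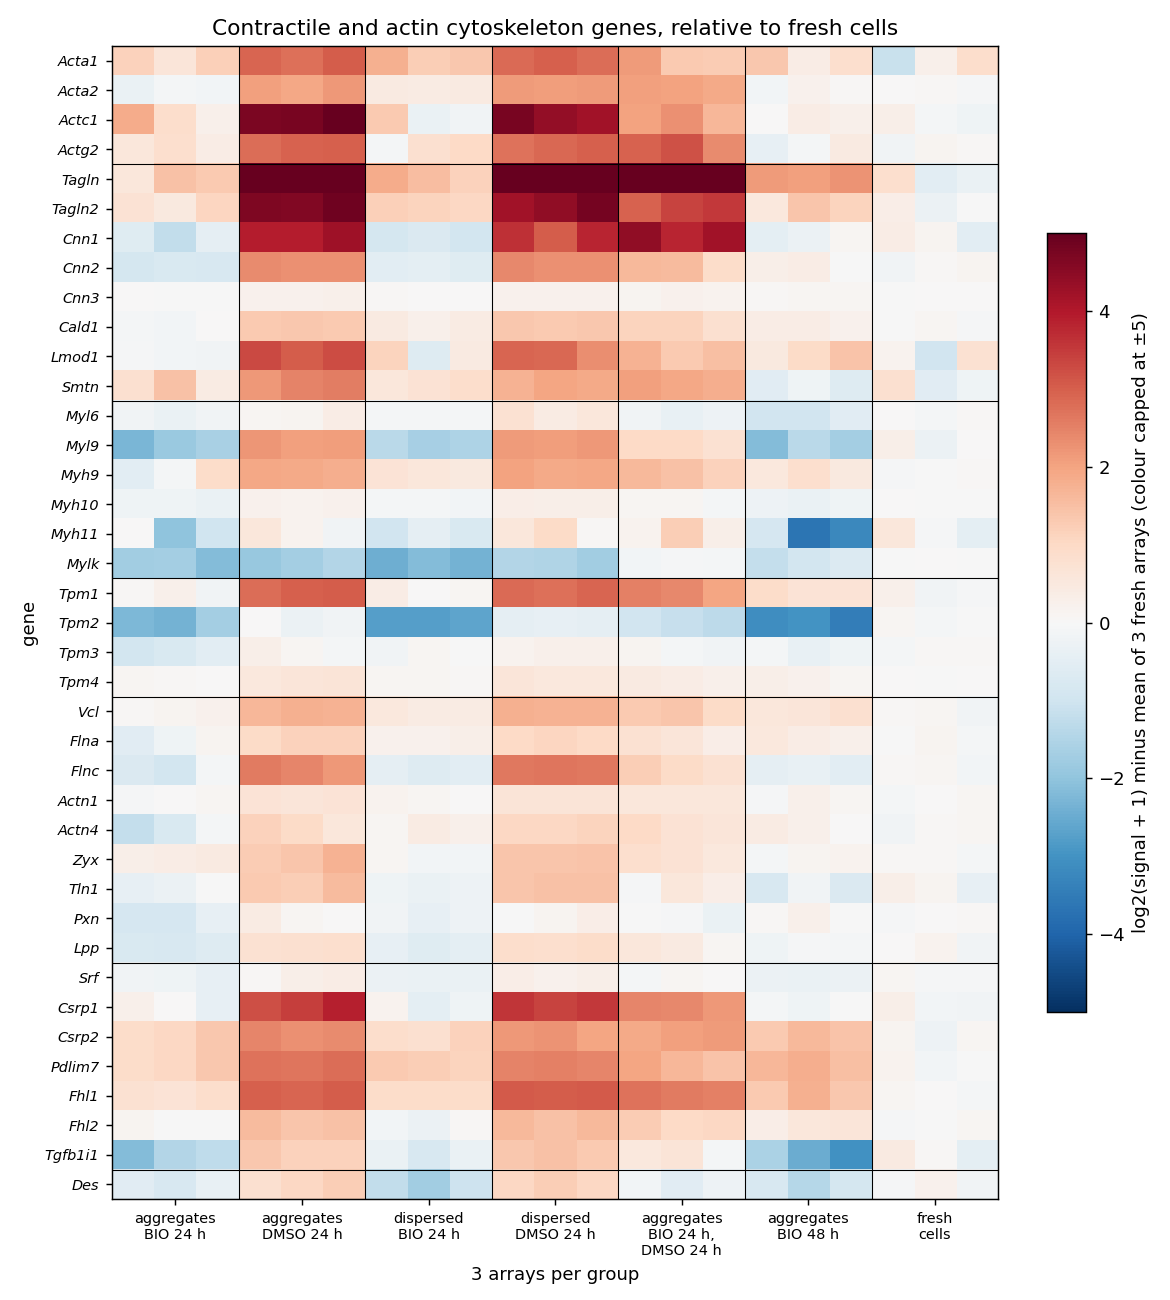
Each row is 1 of the 39 genes, grouped by role, and each column is 1 array, 3 per group. Colour gives log2(signal + 1) minus the mean of the 3 fresh arrays, capped at ±5 in colour. Red fills the columns of both 24 h DMSO groups in most rows, and Mylk, with differences of -1.69 and -1.57 from fresh cells, is blue there.

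The 4 muscle actins, whose proteins form the thin filaments of smooth, skeletal and cardiac muscle, all fell in both formats. Acta2, the alpha actin of vascular smooth muscle, had signals of 2110, 2493 and 2425 in aggregates with BIO and 11060, 10260 and 11970 in aggregates with DMSO. Dispersed cells gave 3688, 3568 and 3671 with BIO and 11740, 11480 and 11740 with DMSO. The groups did not overlap in either format, and Acta2 differed by -2.24 ± 0.09 in aggregates (adjusted p = 6.44e-11) and by -1.68 ± 0.09 in dispersed cells (adjusted p = 1.14e-09). Its probe set carries a suffix that marks possible matches to related transcripts, and the other muscle actins are its closest relatives.

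Actc1, the cardiac alpha actin, had signals of 426, 215 and 138 in aggregates with BIO and 3074, 3195 and 4132 in aggregates with DMSO. In dispersed cells it had 289, 93.2 and 103 with BIO and 3142, 2477 and 2179 with DMSO. Every BIO array lay below every DMSO array, with 1 BIO array in each format well above the other 2. Its difference was -3.87 ± 0.39 in aggregates (adjusted p = 1.39e-06) and -4.18 ± 0.39 in dispersed cells (adjusted p = 5.05e-07). Actg2, the gamma actin of visceral smooth muscle, differed by -2.33 ± 0.27 in aggregates and -2.28 ± 0.27 in dispersed cells, and Acta1, the skeletal alpha actin, by -1.91 ± 0.39 and -1.41 ± 0.39.

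The cytoplasmic actins were measured beside them. Actb, the beta actin of all cells, had signals of 1033, 1496 and 3399 in aggregates with BIO, against 8686, 7770 and 4744 in aggregates with DMSO. It fell by 1.98 ± 0.36 on the log2 scale there (adjusted p = 0.00044), and differed by -0.29 ± 0.36 in dispersed cells (adjusted p = 0.615). The gap between formats did not pass the test of the difference (adjusted p = 0.134). The 2 arrays nearest to each other across those groups were among the 4 that stood apart in the 3' beta-actin control, which reads the same transcript. Actg1, the gamma cytoplasmic actin, stayed between 12300 and 14560 on the arrays of the cultured groups and differed by -0.02 ± 0.07 in aggregates and -0.05 ± 0.07 in dispersed cells (adjusted p = 0.843 and 0.659).

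The 8 actin-binding regulators of contraction all fell in both formats, with a median of -3.23 in aggregates and -2.64 in dispersed cells, or -2.09 and -1.77 with genes below background in a whole group set at their bound. Tagln, the actin-bundling protein transgelin (SM22 alpha) and an early marker of smooth muscle, had signals of 83.3, 159 and 141 in aggregates with BIO, against 6681, 6304 and 6445 in aggregates with DMSO. Dispersed cells had 206, 166 and 125 with BIO and 6282, 6255 and 6479 with DMSO. Tagln was 52.1-fold lower with BIO in aggregates (-5.70 ± 0.31, adjusted p = 1.03e-09) and 38.8-fold lower in dispersed cells (-5.28 ± 0.31, adjusted p = 2.01e-09). These were the largest differences in either format among the genes measured above background.

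Cnn1, the calponin of smooth muscle that inhibits the myosin ATPase, had signals of 3.58, 2.04 and 4.23 in aggregates with BIO and 107, 106 and 133 in aggregates with DMSO. In dispersed cells the signals were 2.89, 3.25 and 2.71 with BIO and 87.7, 57.0 and 99.1 with DMSO. All BIO arrays lay below background and all DMSO arrays above it, so Cnn1 was at least 2.7-fold lower with BIO in aggregates (adjusted p = 1.21e-09) and at least 1.87-fold lower in dispersed cells (adjusted p = 3.09e-09). Cnn2, the calponin of smooth muscle and of many other cells, differed by -3.12 ± 0.15 in aggregates and -2.88 ± 0.15 in dispersed cells. Cnn3, the acidic calponin found in many tissues, moved least among the genes that fell, as read by its brightest probe set. Its signals were 10100, 9822 and 9603 in aggregates with BIO and 11430, 11520 and 11770 in aggregates with DMSO, a difference of -0.23 ± 0.05 (adjusted p = 0.00342). In dispersed cells it had 10290, 10090 and 10090 with BIO and 11350, 11550 and 11550 with DMSO, a difference of -0.18 ± 0.05 (adjusted p = 0.0221). The groups did not overlap in either format, although the shift was small beside the signal. Dimmer probe sets of Cnn3 differed by -0.18 to -1.08 in aggregates and by -0.15 to -1.03 in dispersed cells. The Cnn3 call in dispersed cells was lost with median centring (adjusted p = 0.0601), the Gapdh covariate (0.0701), only the arrays compared (0.0885) and without any 1 of 4 arrays, replicates 2 and 3 of each group (0.0636 to 0.0664), and that in aggregates with only the arrays compared (0.123).

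Tagln2, a transgelin of non-muscle cells, had 443, 374 and 566 in aggregates with BIO and 6920, 6765 and 7856 in aggregates with DMSO. Dispersed cells had 616, 589 and 559 with BIO and 5012, 5846 and 7401 with DMSO. It was 15.7-fold lower with BIO in aggregates (-3.98 ± 0.23, adjusted p = 1.71e-09) and 10.2-fold lower in dispersed cells (-3.35 ± 0.23, adjusted p = 1.01e-08). Its groups were far apart on every array in both formats. Lmod1, a leiomodin that nucleates actin filaments in smooth muscle, lay below background on all 3 arrays of aggregates with BIO and was at least 6.33-fold lower there, and in dispersed cells, where 1 of 3 arrays with BIO lay above background, its fitted difference was -2.40 ± 0.41. Smtn, a smoothelin of contractile smooth muscle, had 134, 213 and 102 in aggregates with BIO, against 348, 431 and 458 in aggregates with DMSO. In dispersed cells the signals of Smtn were 112, 125 and 143 with BIO and 254, 299 and 284 with DMSO. No BIO array reached a DMSO array, and its difference was -1.51 ± 0.29 in aggregates and -1.14 ± 0.29 in dispersed cells (adjusted p = 0.000719 and 0.00678). Cald1, the caldesmon that blocks myosin from actin, differed by -1.38 ± 0.09 in aggregates and -0.98 ± 0.09 in dispersed cells.

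**Figure D2:**
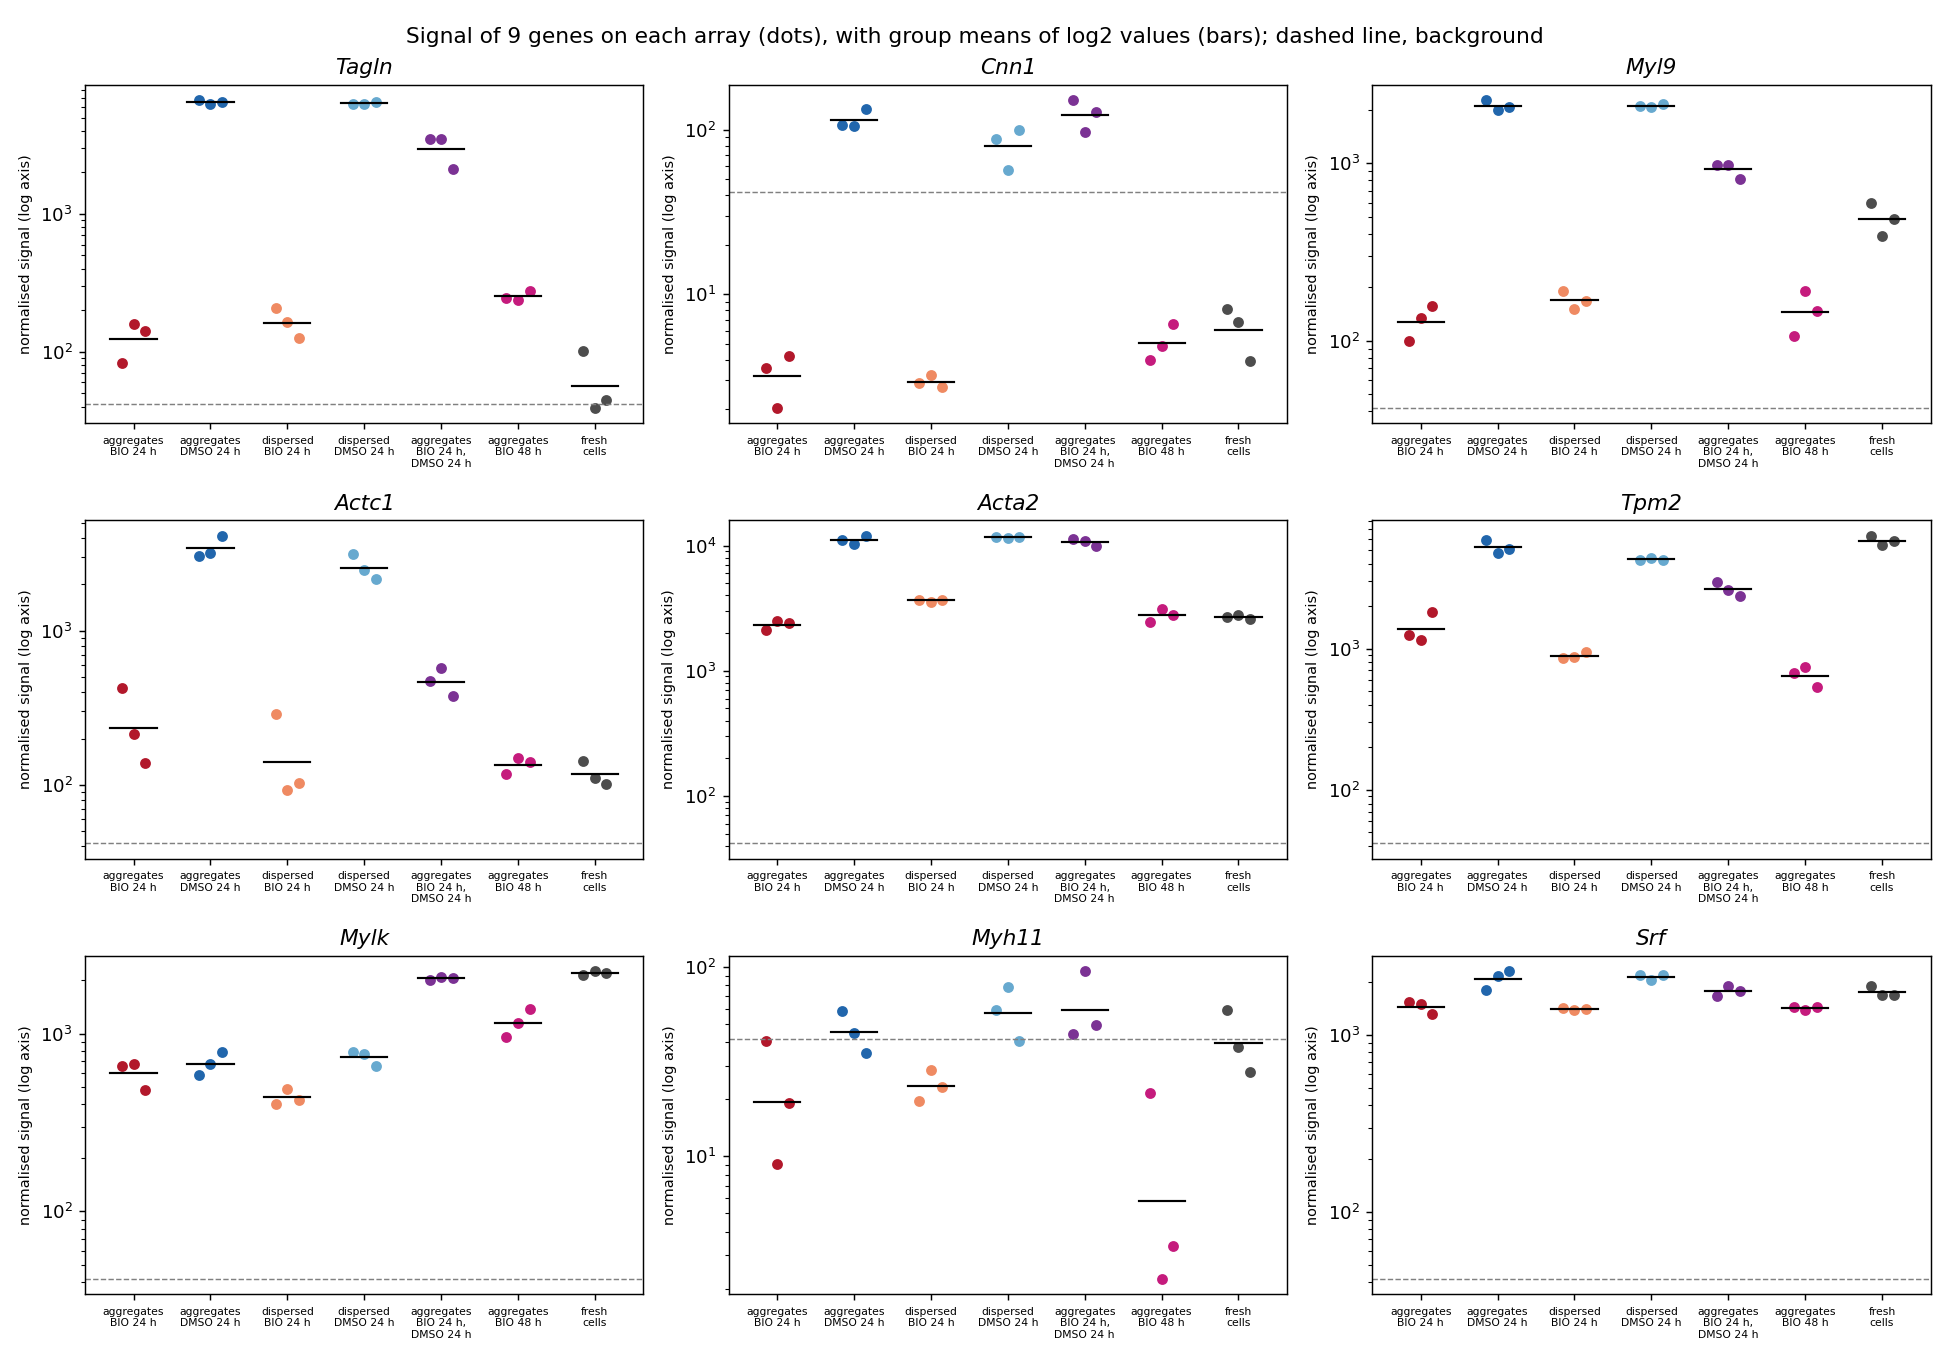
Each panel shows 1 gene, with a dot for each of 3 arrays in 7 groups on a log axis of normalised signal, a bar at the group mean of log2 values and a dashed line at the background of 41.8. The 3 BIO dots of Tagln in aggregates lie at 83.3 to 159 and the 3 DMSO dots at 6304 to 6681, while the dots of Mylk in the same groups overlap.

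Among the 6 genes of myosin II and its kinase, 4 fell with BIO in aggregates and 5 in dispersed cells. Myl9, the regulatory light chain of smooth muscle myosin, had signals of 99.2, 135 and 157 in aggregates with BIO and 2264, 1990 and 2063 in aggregates with DMSO. In dispersed cells it had 190, 151 and 168 with BIO and 2098, 2087 and 2162 with DMSO. Myl9 was 16.3-fold lower with BIO in aggregates (-4.03 ± 0.20, adjusted p = 4.02e-10) and 12.5-fold lower in dispersed cells (-3.64 ± 0.20, adjusted p = 1.05e-09). The chains shared with non-muscle cells moved less than Myl9. Myh9, the heavy chain of non-muscle myosin IIA, differed by -1.78 ± 0.24 in aggregates and -1.36 ± 0.24 in dispersed cells, and Myh10, that of myosin IIB, by -0.46 ± 0.07 and -0.40 ± 0.07.

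Myl6, the essential light chain of smooth muscle and non-muscle myosin, had 321, 288 and 321 in aggregates with BIO and 382, 390 and 463 in aggregates with DMSO. Dispersed cells had 334, 331 and 333 with BIO and 604, 482 and 528 with DMSO. Its difference was -0.41 ± 0.12 in aggregates (adjusted p = 0.0131) and -0.69 ± 0.12 in dispersed cells (adjusted p = 0.000238), and its groups did not overlap. The fall in aggregates was lost without replicate 3 of aggregates with DMSO (adjusted p = 0.0714), without replicate 2 of aggregates with BIO (adjusted p = 0.0593), without the 4 arrays that stood apart (adjusted p = 0.0913), and with only the arrays compared in the model (adjusted p = 0.0688).

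Myh11, the heavy chain of smooth muscle myosin and the most specific marker of that cell type on the list, lay near background. It had 40.5, 9.08 and 19.2 in aggregates with BIO and 58.7, 44.8 and 35.0 in aggregates with DMSO. Dispersed cells had 19.7, 28.5 and 23.2 with BIO and 59.0, 77.9 and 40.8 with DMSO. The BIO arrays all lay below background, the groups overlapped in aggregates and not in dispersed cells, and neither difference passed the test (adjusted p = 0.17 and 0.151). Mylk, the kinase that phosphorylates the regulatory light chain, had 658, 678 and 480 in aggregates with BIO and 582, 673 and 792 in aggregates with DMSO, which overlapped (-0.18 ± 0.15, adjusted p = 0.436). In dispersed cells Mylk had 404, 491 and 421 with BIO and 784, 772 and 655 with DMSO, a difference of -0.75 ± 0.15 (adjusted p = 0.00129). Probe sets of Mylk disagreed. The probe set used here had the highest mean signal, 1 dimmer one fell in aggregates but not in dispersed cells, and the mean of all 3 gave 0.19 in dispersed cells (adjusted p = 0.485).

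All 4 tropomyosins, which lie along the actin filament and set access of myosin to it, fell in aggregates. Tpm1, the alpha tropomyosin, differed by -2.89 ± 0.16 in aggregates and -2.68 ± 0.16 in dispersed cells. Tpm2, the beta tropomyosin, had 1241, 1145 and 1804 in aggregates with BIO, against 5875, 4760 and 5100 in aggregates with DMSO. Dispersed cells had 859, 871 and 947 with BIO, against 4226, 4354 and 4260 with DMSO. Its groups lay far apart, with differences of -1.93 ± 0.15 in aggregates and -2.26 ± 0.15 in dispersed cells (adjusted p = 8.73e-08 and 1.16e-08). Tpm3 and Tpm4, which are also made by non-muscle cells, moved less. Tpm4 differed by -0.54 ± 0.07 in aggregates and -0.48 ± 0.07 in dispersed cells, and Tpm3 by -0.85 ± 0.12 in aggregates (adjusted p = 5.12e-05) and -0.26 ± 0.12 in dispersed cells, which did not pass (adjusted p = 0.138). The Tpm3 call in aggregates was lost with the mean of probe sets (-0.35, adjusted p = 0.0925).

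The 9 genes that crosslink actin or anchor it at focal adhesions all fell in both formats, with medians of -1.52 in aggregates and -1.30 in dispersed cells. Flnc, the filamin of muscle, moved most, by -2.98 ± 0.18 in aggregates and -3.18 ± 0.18 in dispersed cells, while Flna, the filamin of most cells, differed by -1.29 ± 0.15 and -0.79 ± 0.15. Differences in aggregates were -1.61 ± 0.20 for Tln1, the talin that links integrins to actin, -1.58 ± 0.11 for Vcl, the vinculin that binds talin, and -1.52 ± 0.11 for Lpp, a zyxin relative. In dispersed cells they were -1.71 ± 0.20 for Tln1, -1.30 ± 0.11 for Vcl and -1.37 ± 0.11 for Lpp. The alpha-actinins Actn4 and Actn1 differed by -1.58 ± 0.22 and -0.65 ± 0.08 in aggregates, and by -0.82 ± 0.22 and -0.56 ± 0.08 in dispersed cells.

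Zyx, the zyxin recruited to tensed stress fibres, had 985, 1034 and 1090 in aggregates with BIO, against 1935, 2087 and 2677 in aggregates with DMSO. Dispersed cells had 866, 736 and 732 with BIO, against 2121, 2089 and 2163 with DMSO. The groups did not overlap in either format, and Zyx differed by -1.09 ± 0.12 in aggregates and -1.45 ± 0.12 in dispersed cells (adjusted p = 3.33e-06 and 1.15e-07). Pxn, the adhesion scaffold paxillin, was the smallest fall of this group in dispersed cells at -0.43 ± 0.14 (adjusted p = 0.0347), against -0.87 ± 0.14 in aggregates. The call for Pxn in dispersed cells was lost with the mean of probe sets (adjusted p = 0.163), with the Gapdh covariate (adjusted p = 0.136) and without any 1 of 4 arrays, namely replicates 2 and 3 of each dispersed group (highest adjusted p = 0.145).

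Srf itself and 6 LIM-domain genes fell in both formats. Srf had signals of 1545, 1504 and 1313 in aggregates with BIO and 1809, 2158 and 2294 in aggregates with DMSO. Dispersed cells gave 1423, 1384 and 1410 with BIO and 2199, 2057 and 2176 with DMSO. Its groups did not overlap, but its fall was modest, at -0.52 ± 0.09 in aggregates (adjusted p = 0.000422) and -0.61 ± 0.09 in dispersed cells (adjusted p = 9.55e-05). A dimmer probe set of Srf differed by -0.12 in aggregates (adjusted p = 0.572 over all probe sets) and by -0.68 in dispersed cells (0.000581). Csrp1, a LIM protein of smooth muscle that binds alpha-actinin and SRF, had 112, 95.1 and 70.5 in aggregates with BIO and 888, 1055 and 1406 in aggregates with DMSO. In dispersed cells it had 108, 67.9 and 80.6 with BIO and 1148, 987 and 1099 with DMSO. Csrp1 was 12.0-fold lower with BIO in aggregates (-3.58 ± 0.20, adjusted p = 1.39e-09) and 12.7-fold lower in dispersed cells (-3.66 ± 0.20, adjusted p = 8.52e-10).

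Tgfb1i1, the focal adhesion protein Hic-5, differed by -2.85 ± 0.33 in aggregates and -1.86 ± 0.33 in dispersed cells. Fhl1 and Fhl2, which are LIM-only proteins of muscle and heart, differed by -2.19 ± 0.10 and -1.45 ± 0.11 in aggregates, and by -2.12 ± 0.10 and -1.69 ± 0.11 in dispersed cells. Pdlim7, a PDZ and LIM protein of actin bundles, and Csrp2, a LIM protein of smooth muscle, differed by -1.63 ± 0.13 and -1.26 ± 0.14 in aggregates, and by -1.27 ± 0.13 and -1.19 ± 0.14 in dispersed cells. Des, the intermediate filament desmin of muscle, was the only gene of its kind on the list and fell more in dispersed cells (-2.43 ± 0.20, adjusted p = 1.09e-07) than in aggregates (-1.61 ± 0.20, adjusted p = 1.16e-05), a gap that did not pass the test of the difference (adjusted p = 0.222). The 9 genes with a CArG box in the window included Myl9 and Actc1 among the largest falls and Myl6 and Srf among the smallest.

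**Figure D3:**
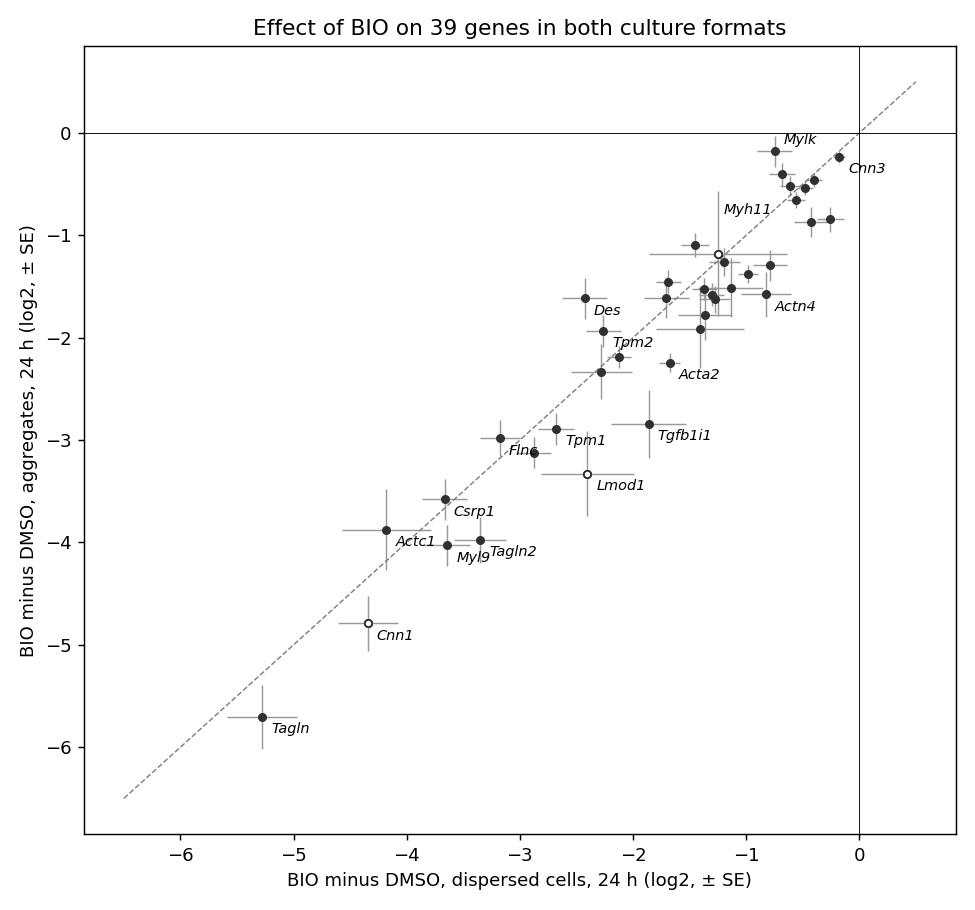
Each point is 1 of the 39 genes, with its log2 difference between BIO and DMSO in dispersed cells on the horizontal axis and in aggregates on the vertical axis, ± SE with 3 arrays per group. The dashed line marks equal differences. All points lie below 0 on both axes, with Tagln at -5.28 and -5.70 farthest from 0 and Cnn3 at -0.18 and -0.23 near 0. Open points are genes below background on all arrays of a group, whose place is fitted and not measured.

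Whether BIO acted on these genes more in aggregates than in dispersed cells was tested as an interaction. The fall was larger in aggregates for 27 of the 39 genes, and 8 of the 39 had an unadjusted p under 0.05. Neither count was made over all genes. Only 1 of the 39 passed the test, where 1.57% of all genes did. That gene was Acta2, with a larger fall in aggregates (-0.57 ± 0.13, adjusted p = 0.0425). Its call did not hold with the deposited scaling (adjusted p = 0.0602), with median centring (0.14), with only the arrays compared (0.0615) or when most single arrays were left out, and the mean of its 3 probe sets, 2 of them near background, gave 0.06 (adjusted p = 0.974). The remaining genes thus had no detected difference between formats at 3 arrays per group. For Tagln the interaction was -0.42 ± 0.44, and for Srf 0.09 ± 0.13, while Cnn1 and Myh11 lay below background with BIO in both formats and did not pass (adjusted p = 0.711 and 0.99).

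Aggregation on its own, compared in DMSO, gave 0 calls among the 39 genes by limma, where 2.63% of all genes were called, 1.84% higher and 0.792% lower. Of the 39 genes 1 had an unadjusted p under 0.05, and averaging all probe sets of a gene gave 2 calls, 1 in each direction. Shares of all genes were not taken for these counts. The smallest adjusted p was that of Myl6, with -0.38 ± 0.12 (adjusted p = 0.0874). Tagln differed by 0.03 ± 0.31, Acta2 by -0.07 ± 0.09, Cnn1 by 0.53 ± 0.26, Myh11 by -0.34 ± 0.61 and Srf by -0.05 ± 0.09 between aggregates and dispersed cells in DMSO. Over all genes the median of this comparison was 0.11, against 0.02 with the deposited scaling.

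The comparison with fresh cells placed these changes against the state of the cells when sorted. After 24 h in DMSO, 32 of the 39 genes were higher in aggregates than in fresh cells and 1 was lower, where 18.4% of all genes were higher and 14.5% lower. In dispersed cells with DMSO, 34 were higher and 2 lower than in fresh cells, where 15% of all genes were higher and 18.3% lower. The medians of the 39 genes were 1.49 in aggregates and 1.56 in dispersed cells, or 1.46 and 1.43 with Cnn1 at its bound. Of the 39 genes, 35 had their highest group mean in 1 of the 2 groups kept 24 h in DMSO, 17 in aggregates and 18 in dispersed cells. How many of all genes did so was not counted. These comparisons with fresh cells share the DMSO arrays with the BIO comparisons above.

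Tagln had 6681, 6304 and 6445 in aggregates with DMSO, against 101, 39.2 and 44.8 in fresh cells, where 1 array lay below background and 1 just above it, a 113-fold rise (6.82 ± 0.31, adjusted p = 1.78e-10). Cnn1 had 107, 106 and 133 in aggregates with DMSO, against 8.12, 6.80 and 3.94 in fresh cells, all below background, and was at least 2.7-fold higher (adjusted p = 8.25e-09). Actc1 had 3074, 3195 and 4132 in aggregates with DMSO, against 144, 110 and 102 in fresh cells, and was 29.1-fold higher (4.86 ± 0.39, adjusted p = 9.09e-08). These genes were thus low in the sorted cells and high after a day of culture in medium with serum and DMSO, without overlap between the arrays.

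The other large rises in aggregates with DMSO over fresh cells were 4.73 ± 0.23 for Tagln2, 3.52 ± 0.20 for Csrp1 and 3.19 ± 0.41 for Lmod1, which lay above background on 1 of 3 fresh arrays. Acta2 had 11060, 10260 and 11970 in aggregates with DMSO, against 2690, 2786 and 2597 in fresh cells, where it was already well above background, and was 4.12-fold higher (2.04 ± 0.09, adjusted p = 2.06e-10). In dispersed cells with DMSO the corresponding rises were 6.79 ± 0.31 for Tagln, 4.47 ± 0.23 for Tagln2, 4.44 ± 0.39 for Actc1, 3.50 ± 0.20 for Csrp1, 3.05 ± 0.10 for Fhl1 and 2.11 ± 0.09 for Acta2, and Cnn1 was at least 1.87-fold higher. Myh11 had 59.0, 37.5 and 27.9 in fresh cells and did not pass in either format (0.19 ± 0.61 in aggregates, 0.52 ± 0.61 in dispersed cells). Srf, with 1896, 1685 and 1686 in fresh cells, differed from them by 0.24 ± 0.09 in aggregates with DMSO (adjusted p = 0.0547) and was higher by 0.29 ± 0.09 in dispersed cells with DMSO (adjusted p = 0.0236), a call lost with the Gapdh covariate (0.078), only the arrays compared (0.0644) and without any 1 of 4 arrays (0.0668 to 0.0815), replicates 2 and 3 of fresh cells and 1 and 3 of dispersed cells with DMSO.

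Mylk ran the other way, with 582, 673 and 792 in aggregates with DMSO and 784, 772 and 655 in dispersed cells with DMSO, against 2137, 2237 and 2183 in fresh cells. No array of cells kept for 24 h reached a fresh one, and the differences were -1.69 ± 0.15 in aggregates and -1.57 ± 0.15 in dispersed cells (adjusted p = 3.18e-07 and 6.14e-07). Tpm2 had 5875, 4760 and 5100 in aggregates with DMSO, against 6288, 5435 and 5777 in fresh cells, which overlapped (-0.16 ± 0.15, adjusted p = 0.485), and it was lower than in fresh cells in dispersed cells with DMSO (-0.44 ± 0.15, adjusted p = 0.0359). The Tpm2 call was lost with the deposited scaling (adjusted p = 0.118), median centring (0.126), without the 4 arrays that stood apart (0.0595) and without any 1 of 5 arrays (0.0701 to 0.116), all of the 6 compared but replicate 2 of fresh cells. Mylk and Tpm2 were the genes with the highest group mean in fresh cells.

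**Figure D4:**
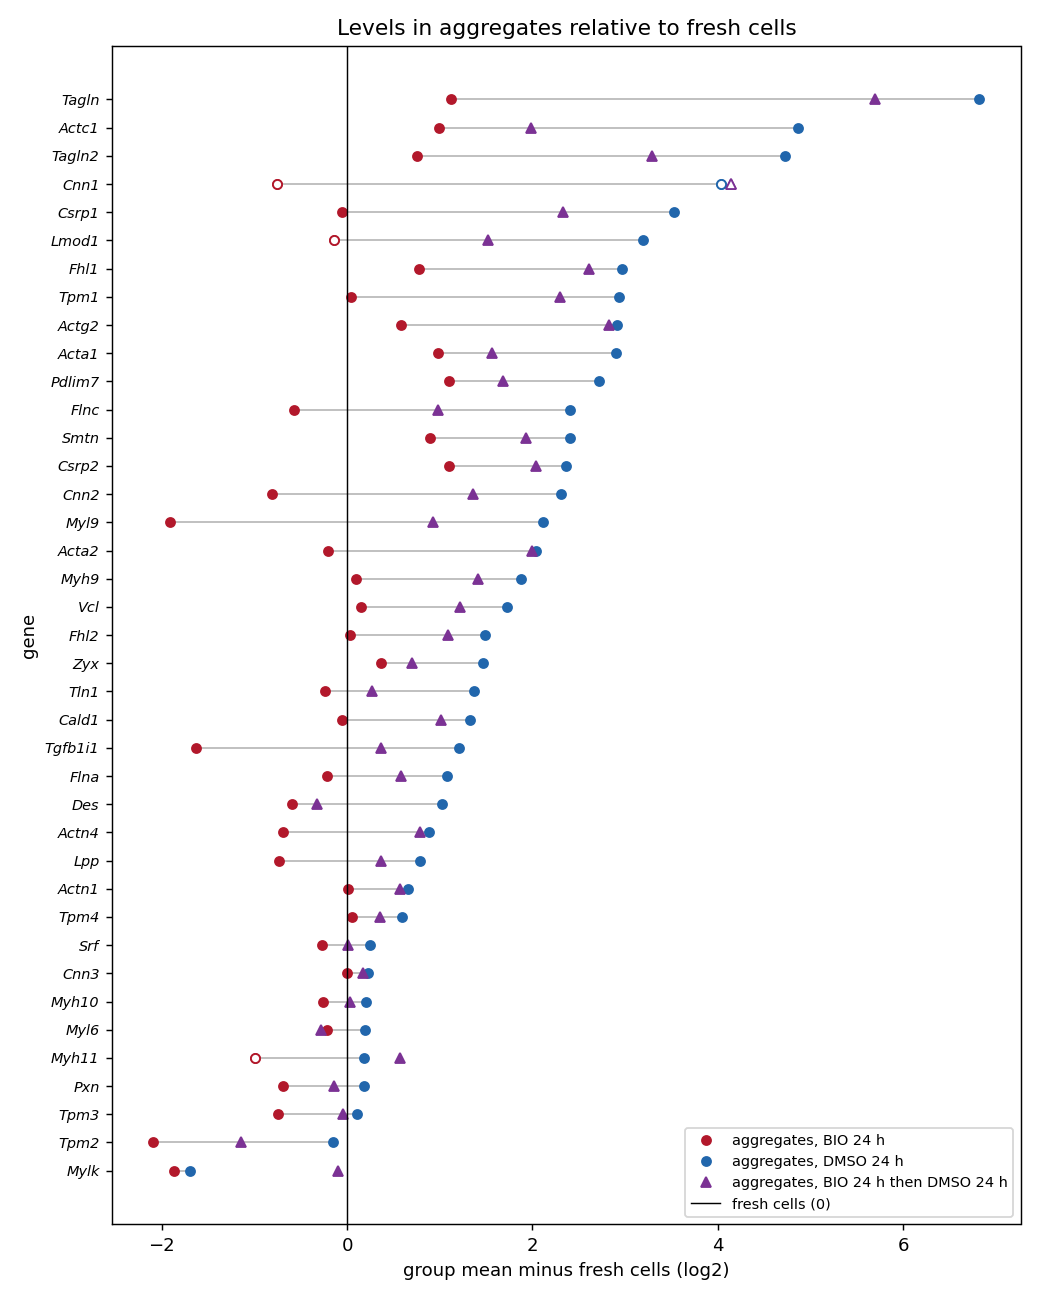
Each row is 1 gene, with the log2 difference from fresh cells of aggregates with BIO for 24 h (red dots), aggregates with DMSO for 24 h (blue dots) and aggregates with BIO for 24 h and then DMSO for 24 h (purple triangles), means of 3 arrays. The grey lines join the BIO and DMSO values of the same day. Most red dots lie near 0 and most blue dots to the right of it, with Tagln at 1.12 and 6.82. Open symbols are fitted values of genes below background on all arrays of a group.

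With BIO present, some of the 39 genes lay above and others below their fresh level after 24 h. In aggregates with BIO, 7 were higher and 14 lower than in fresh cells, where 21.9% of all genes were higher and 11.8% lower, with a median of -0.14 against 0.18 over all genes. That split depended on the scaling, with 4 higher and 15 lower for the deposited scaling and 10 higher and 10 lower for median centring, and the median over all genes was 0.04 with the deposited scaling. Leaving out replicate 2 of fresh cells or replicate 2 of aggregates with BIO left 14 calls in place of 21. In dispersed cells with BIO, 9 were higher and 9 lower than in fresh cells, where 12.7% of all genes were higher and 13.2% lower, or 25.9% either way, with a median of 0.04.

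The 7 genes that were higher in aggregates with BIO than in fresh cells were Tagln (1.12 ± 0.31, adjusted p = 0.011), Pdlim7 (1.10 ± 0.13), Csrp2 (1.10 ± 0.14), Smtn (0.90 ± 0.29), Fhl1 (0.77 ± 0.10), Tagln2 (0.75 ± 0.23) and Zyx (0.37 ± 0.12). Pdlim7 had 1513, 1630 and 2022 in aggregates with BIO and 892, 734 and 780 in fresh cells. Csrp2 had 1978, 2153 and 2622 in aggregates with BIO and 1147, 879 and 1120 in fresh cells. Fhl1 had 2263, 2136 and 2458 in aggregates with BIO and 1411, 1347 and 1254 in fresh cells. For these 3 LIM-domain genes the arrays did not overlap, and they also stayed far below their signals with DMSO, which were 5065 to 5529 for Pdlim7, 5059 to 5618 for Csrp2 and 9941 to 10770 for Fhl1 in aggregates.

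For Tagln, Smtn, Tagln2 and Zyx the margin was smaller. Calls of the first 3 were lost with the Gapdh covariate (adjusted p = 0.0805 for Tagln, 0.22 for Smtn and 0.356 for Tagln2) and with only the arrays compared (0.119, 0.192 and 0.062), and those of Smtn (0.115) and Tagln2 (0.0677) with the deposited scaling. Each was also lost without replicate 2 of fresh cells, Tagln and Smtn without replicate 3 of fresh cells or replicate 2 of aggregates with BIO, and Tagln2 without replicate 3 of aggregates with BIO (highest adjusted p = 0.136). Tagln had 83.3, 159 and 141 in aggregates with BIO, against 101, 39.2 and 44.8 in fresh cells, which overlapped. Tagln2 had 443, 374 and 566 in aggregates with BIO and 337, 221 and 263 in fresh cells. Zyx had 985, 1034 and 1090 in aggregates with BIO and 837, 825 and 746 in fresh cells, so neither gene overlapped. Smtn had 134, 213 and 102 in aggregates with BIO and 134, 50.9 and 64.9 in fresh cells, so that 1 fresh array lay among those with BIO.

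The 5 largest falls in aggregates with BIO relative to fresh cells among genes above background were those of Tpm2 (-2.09 ± 0.15), Myl9 (-1.91 ± 0.20), Mylk (-1.87 ± 0.15), Tgfb1i1 (-1.63 ± 0.33) and Cnn2 (-0.81 ± 0.15). Cnn1 lay below background on all arrays of both groups, so it has no measured difference. Its call in the fit (adjusted p = 0.0372) was lost in 5 settings (0.0543 to 0.335), log2(value + 16) among them, and without replicate 1 or 2 of either group (0.0557 to 0.172). Myl9 had 99.2, 135 and 157 in aggregates with BIO and 601, 390 and 485 in fresh cells, without overlap. Acta2 differed by -0.20 ± 0.09 (adjusted p = 0.109) and Srf by -0.27 ± 0.09 (adjusted p = 0.0325), and Myh11, below background with BIO, did not pass (adjusted p = 0.232). The Srf call was lost in 5 settings (adjusted p = 0.136 to 0.338) and without replicate 1 of fresh cells (0.124) or replicate 3 of aggregates with BIO (0.138).

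In dispersed cells with BIO the rises over fresh cells were led by Tagln (1.51 ± 0.31), Acta1 (1.46 ± 0.39, with 1 of 3 fresh arrays above background), Pdlim7 (1.21 ± 0.13), Tagln2 (1.12 ± 0.23), Csrp2 (0.94 ± 0.14) and Fhl1 (0.93 ± 0.10). With only the arrays compared, the calls of Tagln (adjusted p = 0.0515) and Acta1 (0.111) were lost. That of Fhl1 was lost with the mean of probe sets (0.16). The falls were led by Tpm2 (-2.71 ± 0.15), Mylk (-2.32 ± 0.15), Myl9 (-1.52 ± 0.20), Des (-1.33 ± 0.20) and Cnn2 (-0.54 ± 0.15). Cnn1 again lay below background in both groups, and its call (adjusted p = 0.0277) was lost in 4 settings (0.0623 to 0.33) and without replicate 1 or 2 of fresh cells or 1 or 3 of dispersed cells with BIO (0.0691 to 0.122). The Cnn2 call was lost without replicate 2 (0.0526) or 3 (0.0655) of fresh cells or replicate 3 of dispersed cells with BIO (0.0549). Acta2 was higher there by 0.44 ± 0.09 (adjusted p = 0.00233), a call lost with the mean of probe sets (0.11, adjusted p = 0.84). Srf differed by -0.32 ± 0.09 (adjusted p = 0.0178), a call lost in 2 settings (0.0509 and 0.0511) and without replicate 1 of fresh cells (0.08) or replicate 2 of dispersed cells with BIO (0.0554), and Myh11 did not pass (adjusted p = 0.451).

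Removal of BIO for the second day asked whether the low levels lasted. At 48 h, 30 of the 39 genes were higher in aggregates moved to DMSO than in aggregates kept with BIO, and 0 were lower, where 9.29% of all genes were higher and 11.1% lower, or 20.4% either way. Their median difference was 0.73, or 0.71 with Cnn1 and Myh11 at their bounds, against -0.06 over all genes, and 16 genes rose by more than 2-fold. Rises past 2-fold were not counted over all genes. A model with only the 6 arrays compared gave 19 calls, all of them higher. Without the 4 arrays that stood apart, 32 were higher and 0 lower.

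Tagln had 3514, 3504 and 2126 in aggregates moved to DMSO and 247, 236 and 274 in aggregates kept with BIO, a rise of 11.7-fold (3.55 ± 0.31, adjusted p = 4.05e-07). Cnn1 had 151, 96.9 and 128 after removal and 4.00, 4.82 and 6.62 with BIO kept, which was at least 2.9-fold higher (adjusted p = 7.35e-09). Acta2 had 11240, 10890 and 9975 after removal and 2430, 3106 and 2810 with BIO kept, a rise of 3.86-fold (1.95 ± 0.09, adjusted p = 5.5e-10). These 3 genes showed no overlap between the groups.

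Myh11, which did not pass with BIO at 24 h, had 44.4, 94.8 and 49.1 after removal and 21.5, 2.26 and 3.35 with BIO kept, so that all arrays after removal lay above background and all arrays with BIO kept lay below it. It was at least 1.4-fold higher (adjusted p = 0.0013), and did not pass with only the arrays compared in the model (adjusted p = 0.066). Mylk had 2004, 2072 and 2061 after removal and 952, 1153 and 1378 with BIO kept (0.83 ± 0.15, adjusted p = 0.000762), and after removal it differed from fresh cells by -0.10 ± 0.15 (adjusted p = 0.717). Srf had 1660, 1890 and 1765 after removal and 1445, 1394 and 1441 with BIO kept, a small rise without overlap (0.31 ± 0.09, adjusted p = 0.0254). That call was lost with median centring (adjusted p = 0.0811), the Gapdh covariate (0.111), only the arrays compared (0.153) and without replicate 2 or 3 of either group (0.0516 to 0.104).

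Among the muscle actins Actg2, above background on 2 of 3 arrays with BIO kept, rose by 2.85 ± 0.27 and Actc1 by 1.78 ± 0.39, while Acta1 did not pass (0.71 ± 0.39, adjusted p = 0.236). Actc1 had 474, 573 and 375 after removal, above the 117, 150 and 142 with BIO kept and well below the 3074 to 4132 of aggregates with DMSO at 24 h. Its call was lost with the Gapdh covariate (adjusted p = 0.0643). Of the regulators of contraction, Smtn rose by 2.41 ± 0.29, Tagln2 by 2.28 ± 0.23, Cnn2 by 1.15 ± 0.15 and Cald1 by 0.69 ± 0.09, and Cnn3 (0.09 ± 0.05) and Lmod1 (0.56 ± 0.41) did not pass. Smtn had 318, 292 and 273 after removal and 51.1, 64.8 and 48.4 with BIO kept. Tagln2 had 2070, 2849 and 3178 after removal and 394, 705 and 581 with BIO kept, so both genes were clear of overlap.

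All 6 genes of myosin II and its kinase passed on removal, among them Myl9 by 2.67 ± 0.20, Myh9 by 0.79 ± 0.24, Myl6 by 0.56 ± 0.12 and Myh10 by 0.31 ± 0.07. Myl9 had 980, 980 and 818 after removal and 106, 192 and 147 with BIO kept. The Myh9 call was lost with median centring (adjusted p = 0.0548), the Gapdh covariate (0.136) and without replicate 1 or 2 after removal or replicate 1 or 3 with BIO kept (0.0761 to 0.101). With only the arrays compared, those of Myh10 (adjusted p = 0.18), Myl6 (0.084) and Myh11 were lost, and Myh10 gave -0.0023 with the mean of probe sets. Among tropomyosins, Tpm2 rose by 2.03 ± 0.15 and Tpm1 by 1.53 ± 0.16, and Tpm3 (0.18 ± 0.12) and Tpm4 (0.16 ± 0.07) did not pass. Tpm2 had 2967, 2595 and 2349 after removal, against 668, 738 and 536 with BIO kept.

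The crosslinkers and adhesion genes rose less, with a median of 0.55. Flnc rose by 1.43 ± 0.18, Tln1 by 0.84 ± 0.20, Zyx by 0.63 ± 0.12, Vcl by 0.57 ± 0.11, Lpp by 0.49 ± 0.11 and Actn1 by 0.48 ± 0.08. With only the arrays compared, the calls of Tln1 (adjusted p = 0.103), Vcl (0.0976), Lpp (0.111) and Actn1 (0.0698) were lost. Those of Tln1 (0.0946) and Lpp (0.0809) were also lost with the Gapdh covariate. With the mean of probe sets, those of Vcl (0.127) and Zyx (0.168) were lost. Flna (0.18 ± 0.15), Actn4 (0.55 ± 0.22) and Pxn (-0.24 ± 0.14) did not pass. Of the LIM-domain genes, Tgfb1i1 rose by 2.73 ± 0.33, Csrp1 by 2.44 ± 0.20, Fhl1 by 1.13 ± 0.10, Fhl2 by 0.59 ± 0.11 and Csrp2 by 0.58 ± 0.14. The Fhl1 call was lost with the mean of probe sets (adjusted p = 0.0745) and the Fhl2 call with only the arrays compared (0.0631). That of Csrp2 was lost with the Gapdh covariate (0.0645) and with only the arrays compared (0.0576). Pdlim7 did not move past the threshold (0.02 ± 0.13, adjusted p = 0.944), but its probe sets disagreed. A dimmer one was lower after removal (-0.78, adjusted p = 0.0156 over all probe sets) and another did not pass (-0.18, adjusted p = 0.437). Csrp1 had 512, 499 and 425 after removal and 88.3, 81.7 and 92.6 with BIO kept. Des rose by 0.73 ± 0.20 (adjusted p = 0.0161), which was lost in 3 settings (adjusted p = 0.103 to 0.398) and without replicate 1 after removal (0.069) or replicate 2 with BIO kept (0.093).

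**Figure D5:**
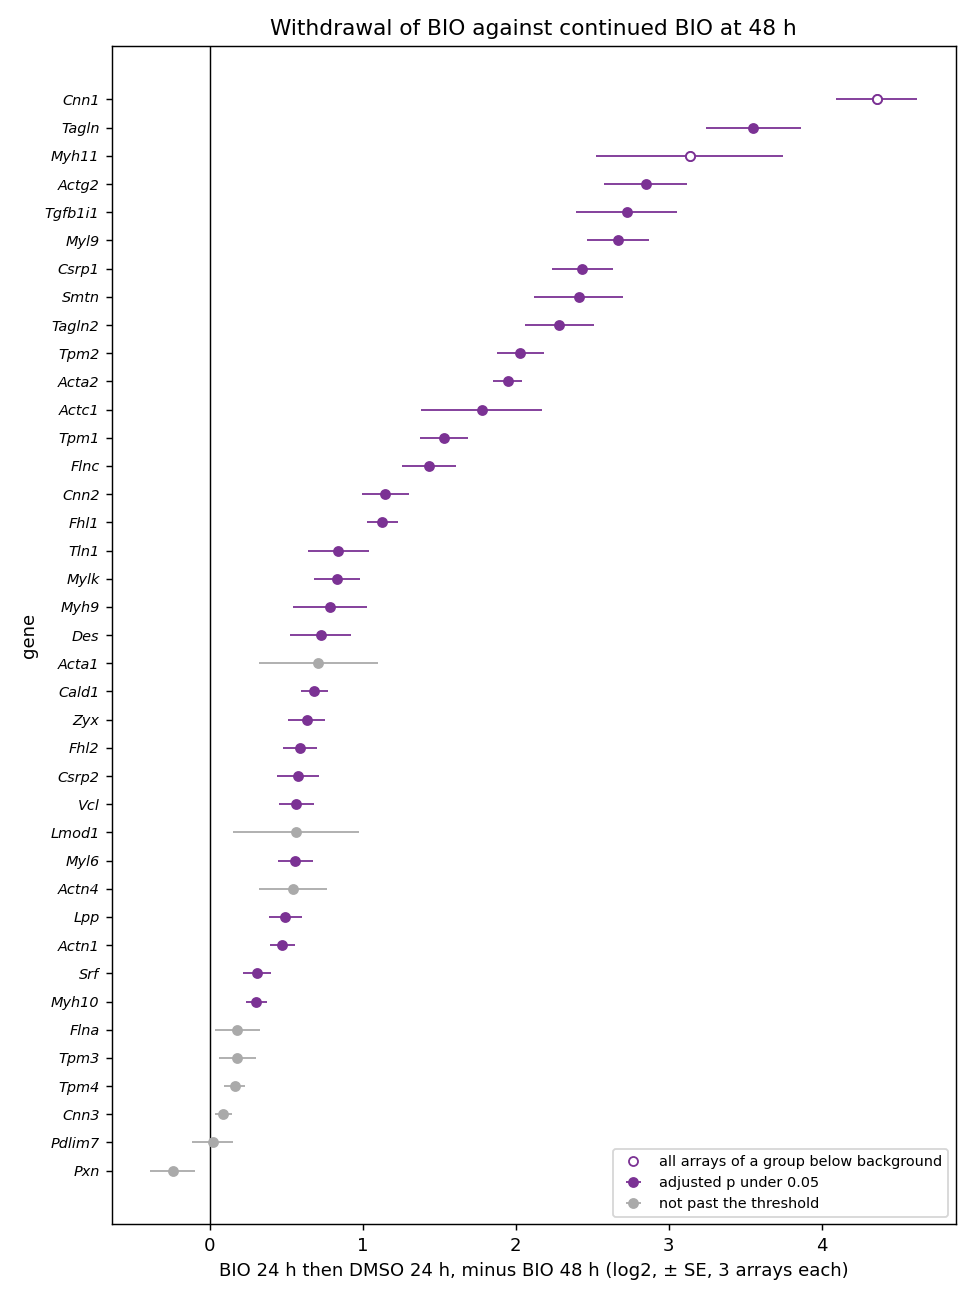
Each row is 1 gene, with the log2 difference between aggregates moved to DMSO and aggregates kept with BIO at 48 h, ± SE with 3 arrays per group. Purple points passed an adjusted p of 0.05 and grey points did not. The open points, Cnn1 and Myh11, lay below background on all arrays with BIO kept, so their place is fitted and not measured. Among the rest Tagln at 3.55 is the highest and Pxn at -0.24 the lowest.

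The second day was also set against the first, in comparisons that carry time in culture. In aggregates moved to DMSO, 32 genes were higher than in aggregates with BIO at 24 h and 0 lower, where 8.66% of all genes were higher and 16.2% lower. The largest rises there were at least 2.9-fold for Cnn1, and on the log2 scale 4.58 ± 0.31 for Tagln, 2.84 ± 0.20 for Myl9, 2.54 ± 0.23 for Tagln2, 2.38 ± 0.20 for Csrp1 and 2.25 ± 0.27 for Actg2. Acta2 rose by 2.19 ± 0.09 and Srf by 0.29 ± 0.09 (adjusted p = 0.0332, lost in 5 settings and without any 1 of 4 arrays), and Myh11 did not pass (adjusted p = 0.0743). The median over all genes was -0.16 in this comparison, against -0.04 with the deposited scaling, and that of the 39 genes was 1.06, or 1.03 with bounds.

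In aggregates kept with BIO, 14 genes were higher at 48 h than at 24 h and 3 lower, where 8.05% of all genes were higher and 12.8% lower. The rises were led by Cnn2 (1.03 ± 0.15), Tagln (1.03 ± 0.31), Mylk (0.94 ± 0.15), Actn4 (0.93 ± 0.22), Pxn (0.80 ± 0.14) and Tpm1 (0.72 ± 0.16). The Tagln call was lost with the Gapdh covariate (adjusted p = 0.341), only the arrays compared (0.0716) and without replicate 1 at 24 h (0.136) or replicate 1 (0.0605) or 3 (0.074) at 48 h. Those of Mylk (0.532) and Pxn (0.461) were lost with the mean of probe sets. The Actn4 call was lost in 2 settings (0.126 and 0.409) and that of Tpm1 in 3 (0.0563 to 0.152). The 3 falls were those of Smtn (-1.38 ± 0.29), Tpm2 (-1.09 ± 0.15) and Myl6 (-0.62 ± 0.12). Myl6 had 182, 186 and 239 at 48 h with BIO and 321, 288 and 321 at 24 h with BIO, without overlap. Acta2 (0.24 ± 0.09, adjusted p = 0.0794), Cnn1, Myh11 and Srf (-0.02 ± 0.09, adjusted p = 0.899) did not pass. The count of calls was 7 with only the arrays compared, and also 7 with the Gapdh 3' to 5' ratio as a covariate, which lost all 3 falls. That ratio averaged 8.14 on the arrays kept with BIO for 48 h and 13.4 on aggregates with BIO at 24 h, and its part in these differences was not tested beyond that model.

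Against fresh cells, aggregates moved to DMSO had 28 genes higher and 1 lower, where 13.2% of all genes were higher and 12.1% lower. The rises were led by Tagln (5.70 ± 0.31), Tagln2 (3.29 ± 0.23), Actg2 (2.83 ± 0.27), Fhl1 (2.61 ± 0.10) and Csrp1 (2.32 ± 0.20), and Cnn1 was at least 2.9-fold higher. Tpm2 was the gene that was lower (-1.15 ± 0.15, adjusted p = 3.61e-05), with arrays that lay between those kept with BIO and the fresh ones. Acta2 was higher by 1.99 ± 0.09, while Srf (0.01 ± 0.09) and Myh11 (0.57 ± 0.61) did not pass.

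Genes that act with this machinery were counted in lists. For every count, the share over all genes was 12.5% falling and 17.5% rising with BIO in aggregates. In dispersed cells it was 13.4% falling and 15.3% rising, and on removal of BIO 9.29% rising and 11.1% falling. Of 16 genes of cytoplasmic actin and filament turnover, 10 fell and 0 rose with BIO in each format, with the severing protein gelsolin, Gsn (-3.34 ± 0.18), Actb (-1.98 ± 0.36) and the monomer-binding thymosin Tmsb4x (-1.73 ± 0.11) the largest in aggregates. Actb differed by 0.56 ± 0.36 between aggregates moved to DMSO and aggregates kept with BIO (adjusted p = 0.313). Both were above aggregates with BIO at 24 h, by 2.35 on the log2 scale after removal and by 1.79 with BIO kept, and aggregates with BIO were below fresh cells by a difference of -2.05 (adjusted p = 0.000361). Actb did not pass in the other comparisons with fresh cells or for aggregation in DMSO, and Actg1 passed in none of the 12 comparisons.

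Of 20 other focal adhesion and stress fibre genes, 15 fell and 2 rose with BIO in aggregates, and 18 fell and 2 rose in dispersed cells. Palld, the palladin of stress fibres, fell by 2.99 ± 0.12 and Nexn, the actin-binding nexilin, by 2.71 ± 0.17 on the log2 scale in aggregates, whereas Tln2, a talin of muscle and brain, rose by 1.10 and Evl, an Ena/VASP protein, by 0.43. Of 16 genes known as SRF or related targets outside the 39, 13 fell and 0 rose with BIO in aggregates and 9 rose and 0 fell on its removal. These included Ankrd1 (at least 9.96-fold lower with BIO in aggregates), Cav1 (-3.41 ± 0.23 there), Thbs1 (-3.36 ± 0.22) and Ccn2 (-3.26 ± 0.11), which are also known targets of the YAP and TAZ coactivators or of TGF-beta.

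Of 9 measured SRF cofactors and ternary complex factors, 3 fell and 0 rose with BIO in aggregates, where 12.5% of all genes fell, and 1 fell and 1 rose in dispersed cells, where 13.4% fell. The falls in aggregates were led by Mical2, an actin-oxidising enzyme (-1.09 ± 0.28), and Elk3, a ternary complex factor (-0.65 ± 0.12). Mrtfa had signals of 196, 214 and 262 in aggregates with BIO and 234, 275 and 307 in aggregates with DMSO (-0.28 ± 0.15, adjusted p = 0.171). Mrtfb had 3774, 3722 and 3101 in aggregates with BIO and 3762, 4457 and 4373 in aggregates with DMSO (-0.25 ± 0.12, adjusted p = 0.138). Both overlapped between the groups. Myocd, the myocardin of smooth and cardiac muscle, lay below background on all arrays of aggregates with BIO and of aggregates with DMSO, and between 55.0 and 66.7 in fresh cells.

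Markers of other cells were measured beside these genes, since in bulk samples fewer cells of a type and less RNA per cell cannot be told apart. Of the 9 interstitial stroma genes, 6 fell and 1 rose with BIO in aggregates, where 12.5% of all genes fell and 17.5% rose. On removal of BIO 9.29% of all genes rose and 11.1% fell, and of the stroma genes 7 rose and 0 fell. Their summed signal was 4284 to 4588 in aggregates with BIO, against 13280 to 13830 in aggregates with DMSO, and 3722 to 4005 in dispersed cells with BIO, against 11770 to 12400 in dispersed cells with DMSO. It was 9603 to 9961 after removal of BIO and 2301 to 2763 with BIO kept, so the stroma genes and the contractile genes moved the same way with BIO. Foxd1 and Col3a1 made up most of these differences, and the other 7 genes summed to 1950 to 2393 in aggregates with BIO and 3410 to 3812 in aggregates with DMSO. In fresh cells the stroma sum was 14360 to 15500, the highest of all groups. Of the 39 contractile genes, 13 had their lowest group mean in fresh cells and 2, Mylk and Tpm2, their highest. The part of stroma cells in the BIO differences was not tested.

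Of 9 measured pericyte and mesangium genes, 3 fell and 1 rose with BIO in aggregates, where 12.5% of all genes fell and 17.5% rose. Summed signals of the 9 were 6314 to 6696 in aggregates with BIO and 5728 to 6526 in aggregates with DMSO. The gene that rose was Itga8, an integrin, and the other 8 summed to 2084 to 2467 in aggregates with BIO and 4286 to 5273 in aggregates with DMSO. In dispersed cells 4 of the 9 fell and 2 rose, where 13.4% of all genes fell and 15.3% rose. Sums of the 9 there were 3163 to 3250 with BIO and 5959 to 6486 with DMSO. Pdgfrb, the receptor that marks pericytes, differed by -2.50 ± 0.24 in aggregates and -4.66 ± 0.24 in dispersed cells on the log2 scale. Of 12 striated muscle genes 2 fell and 2 rose with BIO in aggregates, where 12.5% of all genes fell and 17.5% rose. Sums of the 12 were 1073 to 1103 with BIO and 1881 to 2143 with DMSO. Myh7, a heavy chain of cardiac and slow muscle myosin, held most of that gap, and the other 11 summed to 951.3 to 967.1 with BIO and 890.1 to 1115 with DMSO. These genes to leave out were chosen after their values were seen. Endothelial genes gave 0 falls and 1 rise of 6, and leukocyte genes 2 falls and 1 rise of 6, in aggregates with BIO. Over all genes 12.5% fell and 17.5% rose there, and 9.29% rose and 11.1% fell on removal of BIO. Of 9 progenitor genes 6 fell and 2 rose with BIO in aggregates, and 4 rose and 2 fell on its removal. The part of these cells in the results was not tested.

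The Gapdh 3' to 5' ratio, a sign of how complete the amplified RNA was, averaged 13.4 in aggregates with BIO and 14.2 in aggregates with DMSO, and for dispersed cells 9.79 with BIO and 12.1 with DMSO. With this ratio as a covariate, 37 of the 39 genes still fell in aggregates and 35 in dispersed cells. On removal of BIO the ratio averaged 10.8, against 8.14 with BIO kept, and with the covariate 23 genes rose. Without the 4 arrays that stood apart, 36 genes fell in aggregates and 37 in dispersed cells.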

How the data were processed

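The authors deposited linear signal intensities, between 0.1 and 18025, for 45101 probe sets on 21 arrays, with software and scaling not given in the sources used here. Per the labels, RNA went through 2 rounds of amplification. Values were taken as log2(value + 1) and quantile-normalised. Of the probe sets, 34945 had 1 gene symbol, 932 several and 9160 none, and 64 were controls. Each gene was read from its probe set with the highest mean, giving 18193 genes, with symbols brought up to date through RefSeq.

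Background was set at the 95th percentile over 27 bacterial control probe sets. Where all 3 arrays of a group lay below it, folds are given as "at least". Of the 39 genes, 6 were read by probe sets with the suffix _s_at and 3 by _x_at, which may match related transcripts.

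Limma 3.58.1 in R 4.3.3 fitted 1 mean to each group across the 21 arrays together (residual degrees of freedom 14, prior 1.62), with Benjamini-Hochberg adjustment over all genes at a threshold of 0.05, and was tested on simulated data. The 39 genes, the 12 gene lists and the tests were chosen with earlier results of these data known, and list counts carry no test of their own. Genes were named where they passed in the comparisons of BIO with DMSO or of BIO removed with BIO kept, elsewhere for the 6 largest rises and falls, and Acta2, Tagln, Cnn1, Myh11 and Srf throughout. Replicate numbers did not pair the arrays, since deviations of same-numbered arrays correlated at -0.17 to 0.12 and over 0.1 in 1 of 63 pairs. Alternatives were the deposited scaling, median centring, log2(value + 16), a filter on dim genes, the mean of probe sets, a robust fit with a variance trend, a block for the replicate number, the Gapdh ratio as a covariate, only the arrays compared and leaving out each array. Leaving out the 4 arrays apart in the 3' beta-actin control was added after seeing the data. With 3 arrays per group the number of arrays limits the precision. Of the gene lists, 1 is not reported here. Python 3.11.15 with matplotlib 3.10.9 drew the figures.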

Additional observations from a re-analysis of the deposited data

Results flagged for a closer look

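The effect of BIO on Acta2 differed between culture formats by a test of the difference itself, with an interaction of -0.57 ± 0.13 on the log2 scale (adjusted p = 0.0425) and a larger fall in aggregates. Signals were 2110, 2493 and 2425 in aggregates with BIO, against 11060, 10260 and 11970 in aggregates with DMSO. Dispersed cells had 3688, 3568 and 3671 with BIO, against 11740, 11480 and 11740 with DMSO. The call did not hold under 6 of 10 other settings or when 11 of the 12 arrays compared were left out in turn, the exception being replicate 2 of aggregates with DMSO.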

How the results depend on the processing

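Calls among the 39 genes for BIO against DMSO numbered 35 to 37 in aggregates and 34 to 37 in dispersed cells under every setting tried, all of them lower. Leaving out single arrays gave 36 to 37 and 35 to 37 calls, and 28 to 29 for BIO removed against kept, where only the arrays compared gave 19. For the interaction, 0 genes passed with the deposited scaling, median centring, the replicate block or only the arrays compared, 2 with a variance trend, 3 without the 4 arrays apart in the 3' beta-actin control, and 0 to 1 without single arrays. For aggregates with BIO against fresh cells the count was 13 with the Gapdh covariate, 12 with only the arrays compared and 14 to 20 without single arrays. For BIO at 48 h against 24 h it was 7 with the Gapdh covariate and 7 with only the arrays compared. The mean of probe sets gave 2 calls for aggregation in DMSO and turned the sign of 3 named values that had passed. These were Mylk for BIO in dispersed cells (0.19, adjusted p = 0.485), the interaction of Acta2 (0.0643, adjusted p = 0.974) and Myh10 for BIO removed against kept (-0.0023, adjusted p = 0.997). The cause was not tested. Of 3190 values of named genes under alternatives, 3006 stayed on the same side of the threshold, 164 lost the call and 17 gained it. Among the 3006 were 21 sign changes of differences that passed in neither setting. The replicate block gave 37 calls for BIO in aggregates, 36 in dispersed cells and 30 for BIO removed against kept, and the numbers do not pair the arrays. Genes near background, such as Cnn1 and Myh11, have only bounds where all arrays of a group are dim.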
